A study of Mus musculus with 37 samples.

Results

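The 8 genes described here, all tied to chloride transport and cell volume, were followed in cortical astrocytes of mice after controlled cortical impact (CCI), a model of focal traumatic brain injury. They are 8 of the 21975 genes in the deposited tables, picked by symbol: the tweety family members Ttyh1, Ttyh2 and Ttyh3, the volume-regulated anion channel subunit Lrrc8a, the chloride channel Clcn2, its partners Hepacam and Mlc1, and the cotransporter Slc12a2. Ttyh2 was chosen by its difference between ipsilateral PTE+ and PTE- libraries, so every value of that contrast is given as a description with no test, and so is every value of Ttyh2 that rests on those libraries. The study asked how astrocyte transcripts differ in mice that develop post-traumatic epilepsy (PTE). Wild-type mice, named CD1 males in the methods and CD31 in the sample labels, received a severe CCI over the right parietal cortex or a sham operation with the same craniectomy, and all carried EEG electrodes before the cortex was taken 4 months later. Injured mice with recorded seizures form the PTE+ group and injured mice without them the PTE- group. Astrocytes were taken from each hemisphere with magnetic beads against the surface antigen ACSA-2, 1 library per mouse and hemisphere. The ipsilateral cortex gave 5 sham, 10 PTE- and 4 PTE+ libraries and the contralateral cortex 5, 9 and 4, with both hemispheres present for 17 mice.

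Astrocytes take up potassium, chloride and water during neuronal activity, swell, and recover their volume by opening anion channels through which chloride and organic osmolytes leave. LRRC8A is the obligatory subunit of the volume-regulated anion channel. ClC-2, the product of Clcn2, is held at astrocyte junctions and endfeet by the adhesion molecule GlialCAM, the product of Hepacam, together with the membrane protein MLC1, and loss of any of these proteins causes white matter disease with vacuoles or cysts. The tweety proteins were first described as large-conductance or swelling-activated anion channels, a role that is debated, and NKCC1, the product of Slc12a2, brings chloride into the cell with sodium and potassium.

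All 8 genes are protein-coding. On GRCm38, Ttyh1 (ENSMUSG00000030428) spans chr7:4119408-4136708, Ttyh2 (ENSMUSG00000034714) chr11:114675431-114720977 and Ttyh3 (ENSMUSG00000036565) chr5:140620578-140649031. Lrrc8a (ENSMUSG00000007476) spans chr2:30237715-30263790 and Clcn2 (ENSMUSG00000022843) chr16:20702964-20717746. Hepacam (ENSMUSG00000046240) spans chr9:37367351-37386575 and Mlc1 (ENSMUSG00000035805) chr15:88955884-88979007. A promoter entry of RefSeq on GRCm38.p6 was matched by symbol to 7 of the 8 genes, all but Slc12a2. Windows of 200 bases, each ending 50 bases short of the RefSeq start of Ttyh2, the gene selected, and of its paralog Ttyh3, at a like level, are shown for comparison as they run 5′ to 3′ at chr11:114675218-114675417 (plus strand) and chr5:140649082-140649281 (minus strand), with each GGGCGG (a GC box) in capitals.
Ttyh2: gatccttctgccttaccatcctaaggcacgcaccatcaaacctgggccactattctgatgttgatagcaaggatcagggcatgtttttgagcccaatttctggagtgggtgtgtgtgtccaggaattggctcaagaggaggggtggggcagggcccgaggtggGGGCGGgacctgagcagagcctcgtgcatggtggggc
Ttyh3: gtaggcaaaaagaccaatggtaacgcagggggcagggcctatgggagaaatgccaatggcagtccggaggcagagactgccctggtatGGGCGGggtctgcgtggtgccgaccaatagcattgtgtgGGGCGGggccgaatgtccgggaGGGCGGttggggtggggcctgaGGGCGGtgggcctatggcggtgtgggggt
Both strands were searched. The Ttyh2 window held 1 GC box and 2 CCAAT boxes at 58.0% G or C with 4 CpG, and the Ttyh3 window 4 GC boxes and 3 CCAAT boxes at 65.5% G or C with 11 CpG. Over 32851 promoter windows of the same length, 24.6% held GGGCGG, 28.4% held CCAAT and 9.14% held TATAAA, which neither window held, and the medians were 51.5% G or C and 4 CpG. These matches are letters in a window and were not tied to any measurement.

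The values are TPM, transcript abundances scaled by length and to the same total in every library. TPM keep no sequencing depth, so the depth of each library is unknown here, and the precision is given by the number of libraries and the spread between them. The library of ipsilateral PTE- mouse 9_14 stood apart with 10727 genes above 0, against 15599 to 18534 in the others. Among defining markers, Slc1a3 (a glutamate transporter of astrocytes) averaged 2141 ± 436 TPM (SD, n = 37) and Aldoc 10085 ± 1198, whereas the microglial gene Itgam averaged 1.45 ± 1.99 and the neuronal gene Rbfox3 19.7 ± 13.4. The summed 9 microglial markers ranged from 120 to 653 TPM and the 7 neuronal markers from 46.2 to 641, so neither cell type was absent. The myelin gene Mbp was not absent: it ranged from 114 to 3484 TPM, so RNA of oligodendrocytes was present in every library. In bulk samples of this kind, fewer cells of a type and less RNA per cell cannot be told apart.

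The 8 genes ranged from among the most abundant transcripts of the libraries to modest ones. Ttyh1 averaged 1121 ± 172 TPM (SD, n = 37) and ranked 83 among all genes, and Mlc1 averaged 1015 ± 114 TPM and ranked 94. Hepacam followed at 328 ± 75.1 TPM. Clcn2 averaged 89.5 ± 23.2, Ttyh2 66.6 ± 21.6 and Ttyh3 56.1 ± 16.7 TPM. Slc12a2 and Lrrc8a were lowest, at 12.15 ± 5.04 and 11.98 ± 3.85 TPM. Neighbours in this order were compared within each library: Mlc1 exceeded Hepacam, Hepacam exceeded Clcn2 and Ttyh3 exceeded Slc12a2 in 37 of 37 libraries. Ttyh1 and Mlc1, Clcn2 and Ttyh2, Ttyh2 and Ttyh3, and Slc12a2 and Lrrc8a differed on average by less than 1 SD of their within-library log2 difference, and Slc12a2 exceeded Lrrc8a in only 14 of 37.

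Mlc1 was the steadiest of the 8. Its SD within groups was 0.14 on the log2 scale, and 6% of the 100 genes at a like level had a smaller one. The spread of Ttyh2 was 0.46, and 82% of the 1650 genes at its level had a smaller one. Of the summed TPM of the tweety family, Ttyh1 made up 90.2 ± 1.81% (SD, n = 37), Ttyh2 5.36 ± 1.49% and Ttyh3 4.49 ± 0.935%. The share of Ttyh2 ranged from 4.51 to 8.22% in ipsilateral PTE+ libraries, from 1.97 to 5.91% in PTE- and from 3.91 to 7.50% in sham.

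**Figure D1:**
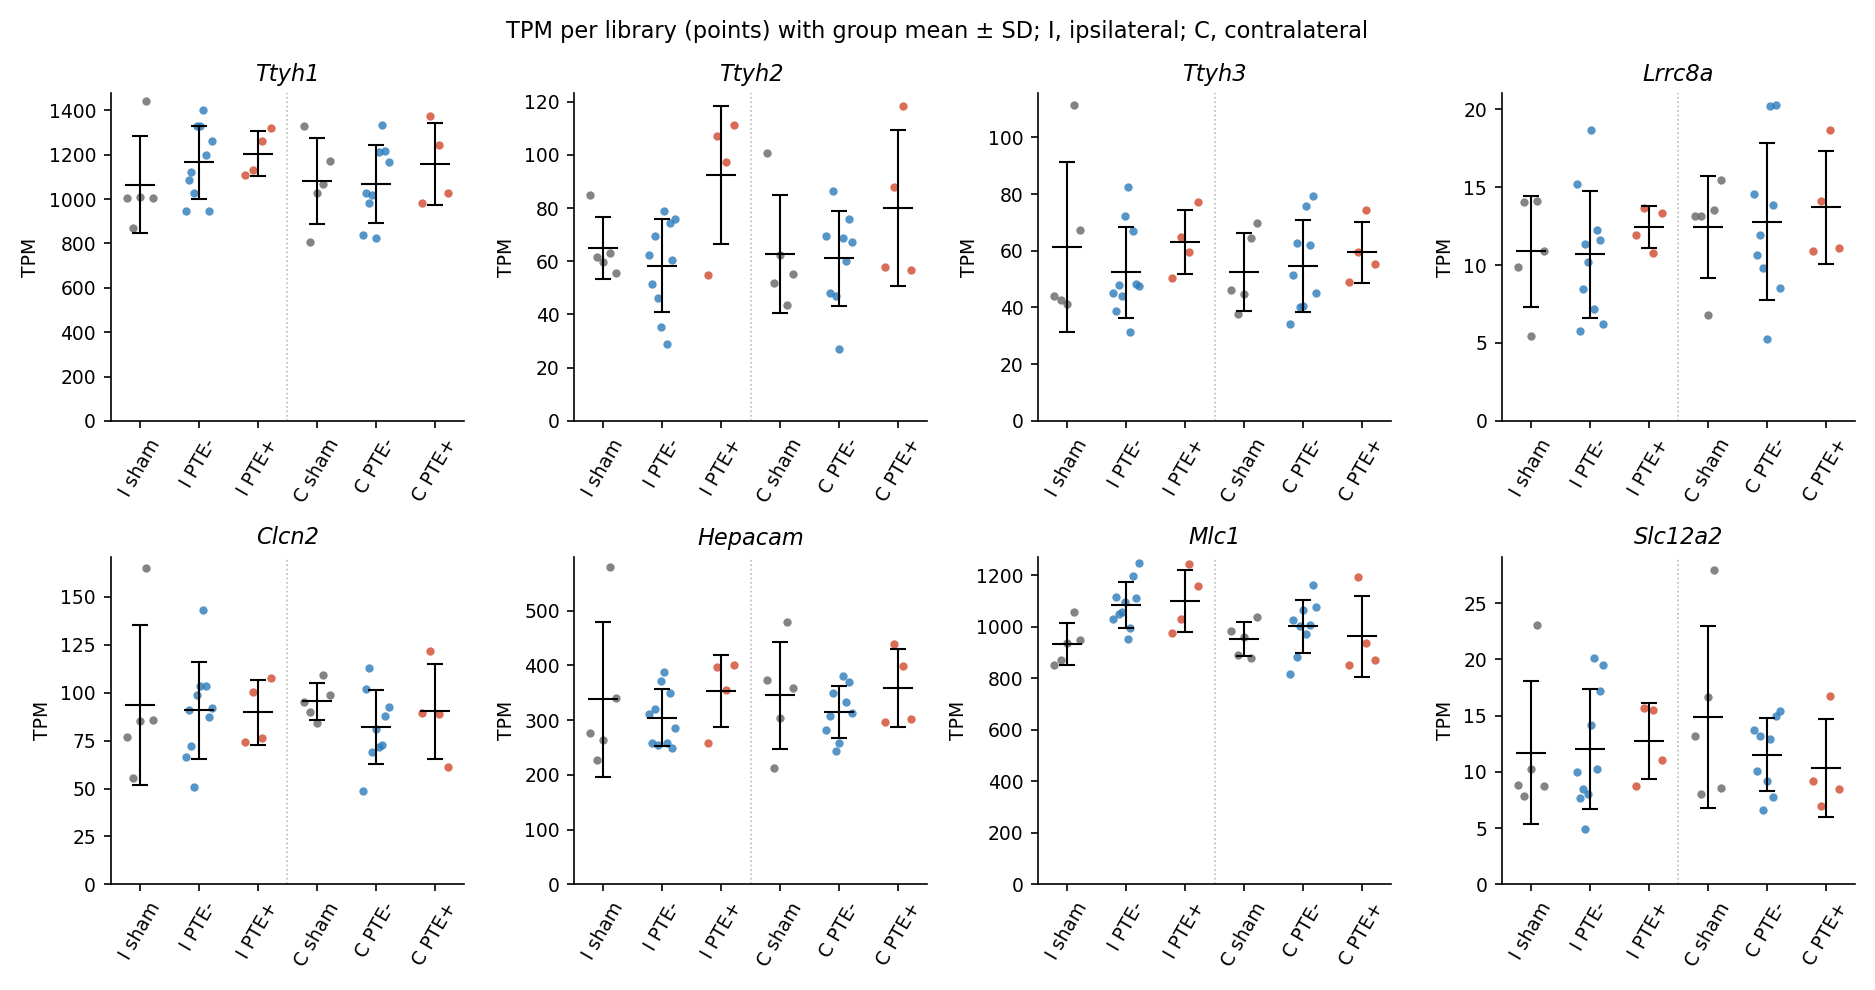
TPM (linear axes from 0) of the 8 genes in every library, one panel per gene, with ipsilateral (I) groups on the left and contralateral (C) groups on the right of each panel. Points are libraries, horizontal marks are group means and bars are SD. 3 of 4 ipsilateral PTE+ libraries lie above every PTE- library for Ttyh2, and ipsilateral Mlc1 of both injured groups lies mostly above sham.

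Of the 8 genes, Ttyh2 had the widest difference between injured mice with and without epilepsy, in the contrast it was selected on. In the ipsilateral PTE+ libraries it stood at 54.7 TPM in mouse 8_10, 107 in 9_17, 97.4 in 9_18 and 111 in 9_19. The 10 PTE- libraries ran from 28.9 to 79.1 TPM with a median of 61.4, and the 5 sham libraries read 84.9 in 8_15, 61.6 in 8_16, 55.5 in 9_9, 59.7 in 9_10 and 63.3 in 9_11. Thus 3 of the 4 PTE+ libraries were above all PTE- and all sham libraries, and 8_10 was below all 5 sham libraries and below the PTE- median. This split of the PTE+ libraries follows the prefix of the mouse name, whose meaning the labels do not give. Mouse 8_10 was the only PTE+ library with prefix 8, and the 3 with prefix 9 read 97.4 to 111 TPM. PTE- libraries ran from 46.2 to 69.6 TPM at prefix 8 (n = 4) and from 28.9 to 79.1 at prefix 9 (n = 6). Sham libraries ran from 61.6 to 84.9 TPM (n = 2) and from 55.5 to 63.3 (n = 3). The mean was 92.6 ± 25.9 TPM (SD, n = 4) in PTE+, 58.4 ± 17.4 (n = 10) in PTE- and 65.0 ± 11.5 (n = 5) in sham. The difference of mean log2(TPM + 1) between PTE+ and PTE- was 0.67 (95% interval 0.11 to 1.23), or 1.59-fold, and the median over all genes tested was itself 0.12 higher in PTE+, leaving 0.55 above that shift. Against sham the log2 difference was 0.47 in PTE+ and -0.20 in PTE-. Left without mouse 8_10 the PTE+ versus PTE- difference was 0.90, and without the library of mouse 9_14 it was 0.57.

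A differentially expressed gene (DEG) has a limma p under 0.05 without adjustment and a fold of at least 1.2, the thresholds of the methods. In ipsilateral PTE+ versus PTE-, 60 of 10473 genes (0.573%) met that rule. Ttyh2 was taken from those genes, so its place among them is no result. Its log2 difference was 0.58, 0.63 and 0.57 without PTE+ library 9_17, 9_18 or 9_19. For the other members the log2 differences were 0.30 for Ttyh3, 0.27 for Lrrc8a, 0.21 for Hepacam, 0.15 for Slc12a2, 0.06 for Ttyh1, 0.02 for Mlc1 and 0.01 for Clcn2. The value of Hepacam was 0.35 when mouse 8_10 was left out. For these 7 genes PTE+ and PTE- libraries overlapped, and for Ttyh2 they overlapped through PTE+ mouse 8_10.

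The contralateral cortex was not used in choosing Ttyh2. However, 3 of its 4 PTE+ mice and all 9 of its PTE- mice are the same animals, so its tests are not independent of that choice. Contralateral Ttyh2 stood at 57.8 TPM in mouse 8_10, 87.8 in 8_17, 118 in 9_17 and 56.6 in 9_18 among PTE+ mice. The 9 PTE- libraries ran from 27.1 to 86.6 TPM with a median of 67.1, and the sham libraries read 101 in 8_15, 51.8 in 8_16, 55.2 in 9_9, 62.2 in 9_10 and 43.5 in 9_11. Here 2 of 4 PTE+ libraries lay above all PTE- libraries, the other 2 lay below the PTE- median, and 1 was above all sham libraries. The mean was 80.2 ± 29.3 TPM (SD, n = 4) in PTE+ and 61.1 ± 17.9 (n = 9) in PTE-. The log2 difference of 0.38 (95% interval -0.17 to 0.94) did not pass the test (limma p = 0.165, adjusted p = 0.999, exact permutation p = 0.234). It was 0.17 without mouse 9_17, 0.52 without mouse 9_18 and 0.12 in an alternative fit with array weights. Nor did the difference from sham pass in PTE+ (0.34, limma p = 0.229, exact permutation p = 0.302), in PTE- (-0.04, limma p = 0.869) or in all CCI mice (0.08, limma p = 0.747). The PTE+ value of 0.34 was 0.13 without mouse 9_17 and 0.08 with array weights.

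Within a mouse, the hemispheres carried like levels of Ttyh2. Over the 17 mice with both libraries, and after group means were removed, Pearson's r between ipsilateral and contralateral log2(TPM + 1) was 0.76, and 5.31% of 10235 genes had a higher one. The same r was 0.77 for Slc12a2, 0.65 for Hepacam, 0.63 for Lrrc8a and 0.52 for Ttyh3, against a median over all genes of 0.46. It was 0.33 for Clcn2, 0.25 for Mlc1 and 0.19 for Ttyh1, all below that median. These correlations are descriptions over mice that share surgery, bead isolation and library preparation on both sides. Mouse 9_17 was high for Ttyh2 on both sides, at 107 and 118 TPM, and mouse 8_10 low on both, at 54.7 and 57.8. Mouse 9_18 differed most, at 97.4 TPM ipsilaterally and 56.6 contralaterally. In sham mice the difference between hemispheres in Ttyh2 did not pass the test (log2 difference 0.10, limma p = 0.653, higher ipsilaterally in 3 of 5 mice). With the mouse as a block the limma p was 0.470 (95% interval -0.19 to 0.38).

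**Figure D2:**
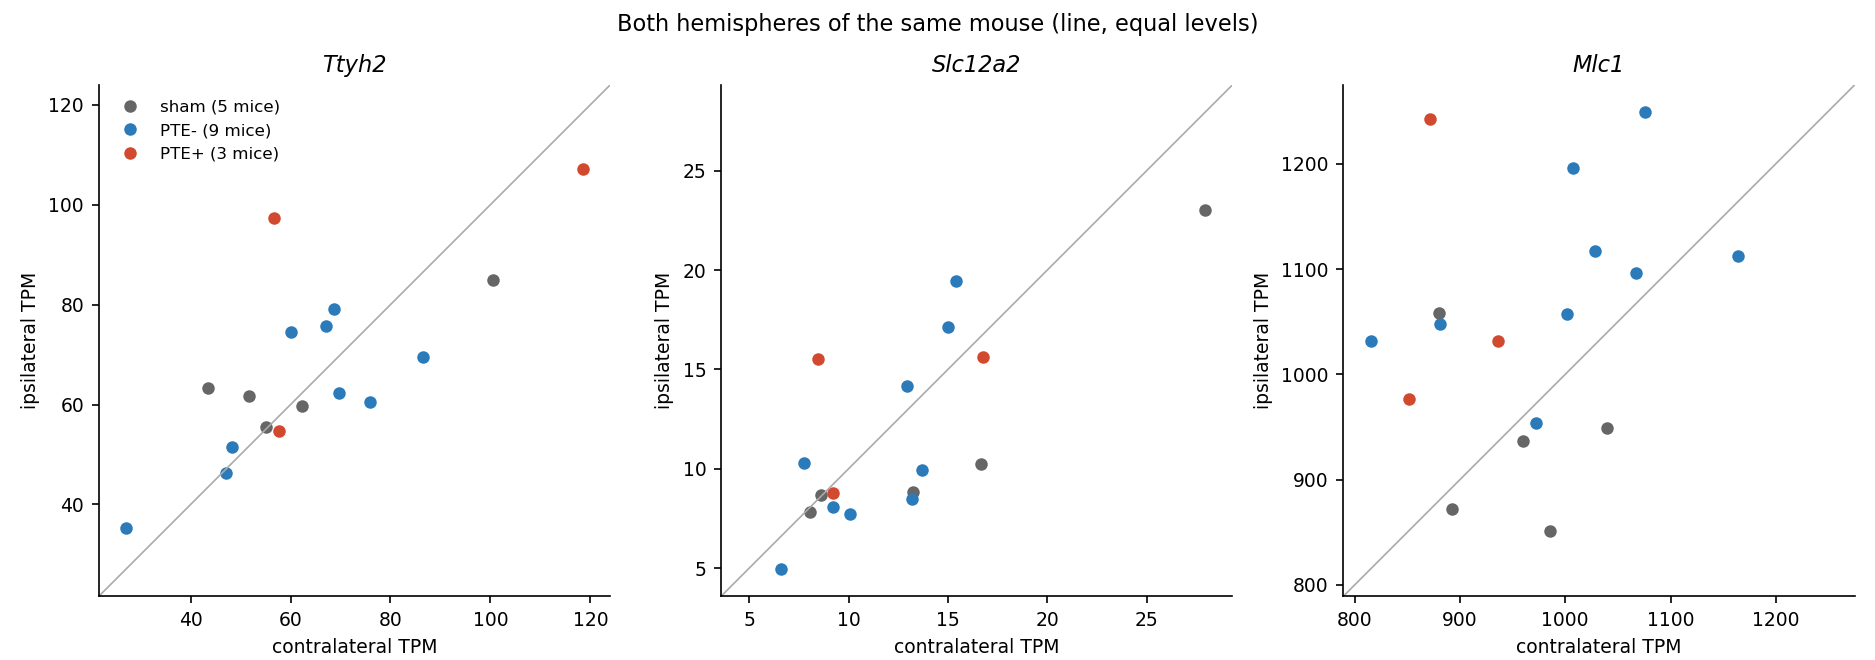
Ipsilateral TPM (vertical axis) against contralateral TPM (horizontal axis, same scale) for Ttyh2, Slc12a2 and Mlc1, one point per mouse with both hemispheres, colored by group, with a line at equal levels. After group means were removed, r was 0.76 for Ttyh2, 0.77 for Slc12a2 and 0.25 for Mlc1, which does not measure closeness to the line. Slc12a2 lies below the line in 4 of 5 sham, 5 of 9 PTE- and 2 of 3 PTE+ mice. Mlc1 lies above it in all 3 PTE+ mice and in 7 of 9 PTE- mice.

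Mlc1 was the only member with a limma p under 0.05 in any tested comparison. It accounts for 2 of the 82 tested pairs of a member and a comparison, beside 2.26% of all genes over the same 11 comparisons. Those 2 pairs, ipsilateral CCI and PTE- versus sham, share their sham and PTE- libraries. Ipsilateral sham libraries read 851 TPM in mouse 8_15, 872 in 8_16, 949 in 9_9, 937 in 9_10 and 1058 in 9_11. The PTE- libraries ran from 954 to 1249 TPM with a median of 1077, and the PTE+ libraries read 976 in 8_10, 1031 in 9_17, 1242 in 9_18 and 1157 in 9_19. All 14 injured libraries were above the sham median and 7 of 14 were above every sham library, so that the groups overlapped only through sham mouse 9_11. Mean levels were 933 ± 81.0 TPM (SD, n = 5) in sham, 1086 ± 88.8 (n = 10) in PTE- and 1102 ± 120 (n = 4) in PTE+. CCI exceeded sham by 0.22 on the log2 scale (SE 0.0754, 95% interval 0.07 to 0.38), or 1.17-fold, at limma p = 0.00757, adjusted p = 0.9997 and exact permutation p = 0.0031. PTE- exceeded sham by 0.22 as well (limma p = 0.0179, adjusted p = 0.9987, exact permutation p = 0.00699). For PTE+ the difference was 0.24 (limma p = 0.0874, exact permutation p = 0.0476). All 3 are below 1.2-fold, so Mlc1 was not a DEG.

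Without sham mouse 9_11 the Mlc1 differences from sham were 0.27 for CCI, 0.26 for PTE- and 0.28 for PTE+, and Mlc1 met the DEG rule in each. That ipsilateral library had the lowest summed oligodendrocyte (521 TPM) and microglial (120 TPM) markers and the highest summed astrocyte markers (20577 TPM) of the 37, and the part of its composition in these calls was not tested. Sham medians lay below PTE- medians within each prefix of the mouse name, whose meaning the labels do not give, at 862 against 1053 TPM and at 949 against 1104. Among mice named 8, sham read 851 and 872 TPM and PTE- 1032 to 1118, and among mice named 9, sham ranged from 937 to 1058 and PTE- from 954 to 1249. With the prefix in the fit the CCI difference remained 0.22. Contralaterally Mlc1 differed from sham by 0.05 in CCI (limma p = 0.601) and by 0.01 in PTE+ (limma p = 0.963). The test of the difference between the hemispheres gave 0.17 (limma p = 0.133), or 0.20 with the mouse as a block (limma p = 0.0552), and did not pass. In PTE- mice Mlc1 was higher ipsilaterally in 7 of 9, by 0.12 (limma p = 0.103), or by 0.13 with the mouse as a block (limma p = 0.0350, exact sign-flip permutation p = 0.0273). It was higher in 3 of 3 PTE+ mice, where the smallest exact p is 0.25.

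Some markers of oligodendrocytes, astrocytes and ependymal cells were called in ipsilateral CCI versus sham, where 169 of 10434 genes (1.62%) were called. In PTE- versus sham the share was 1.54% of genes and in PTE+ versus sham 1.56%. Ipsilaterally, the summed TPM of the 10 oligodendrocyte markers ranged from 521 to 4459 in sham (median 3081) and from 774 to 2261 in PTE- (median 1337). In PTE+ it ranged from 1182 to 2314 (median 1430), and no marker was at 0 throughout a group. Of 8 tested oligodendrocyte markers 4 were lower in CCI than in sham, 4 were lower in PTE- and 0 in PTE+. In PTE+, with 4 libraries, also 0 had a limma p under 0.05. Their median log2 difference from sham was -1.21 in PTE- and -0.85 in PTE+, beside -0.04 and 0.09 over all genes. Of 10 astrocyte markers 2 were higher in CCI, Gfap by 1.18 (limma p = 0.000523, adjusted p = 0.909) and Aqp4. Of 6 ependymal and choroid plexus markers 2 were higher in CCI, Foxj1 by 0.98 (limma p = 0.00555) and Tmem212 by 1.08 (limma p = 0.0404), and their sum ranged from 251 to 679 TPM in sham, from 346 to 1503 in PTE- and from 312 to 457 in PTE+. No marker of oligodendrocyte precursors, microglia, endothelium, neurons or mural cells was called in CCI versus sham ipsilaterally, and 0 had a limma p under 0.05. Over the 37 libraries Mlc1 had an r of -0.36 with the oligodendrocyte sum, on the log2 scale, -0.46 with the neuron sum and 0.61 with the astrocyte sum, and 0.11 with the ependymal sum. The astrocyte sum itself overlapped between groups, at 15393 to 20577 TPM in sham, 14209 to 19986 in PTE- and 15984 to 19520 in PTE+. The part of these shifts in the Mlc1 result was not tested.

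No tested member was a DEG against sham on either side, and none but Mlc1 had a limma p under 0.05. In the ipsilateral cortex, CCI versus sham called 169 of 10434 genes (1.62%) and 0 of 7 tested members, and 1 member, Mlc1, had a limma p under 0.05 (1.87% of genes did). PTE- versus sham called 161 of 10485 genes (1.54%) and 0 of 7 members, with Mlc1 again at a limma p under 0.05 (1.65% of genes). PTE+ versus sham called 163 of 10447 (1.56%) and 0 of 7 members. In the contralateral cortex, CCI versus sham called 428 of 10556 genes (4.05%), PTE- versus sham 397 of 10564 (3.76%), PTE+ versus sham 210 of 10640 (1.97%) and PTE+ versus PTE- 291 of 10423 (2.79%). None of the 8 members was among them, and none had a limma p under 0.05. Of the 82 tested pairs of a member and a comparison, 2 had a limma p under 0.05, against 2.26% of all genes over the 11 comparisons with a tested member. Summed endothelial markers were 459 to 2053 TPM in contralateral sham, 547 to 1468 in PTE- and 834 to 2621 in PTE+, and their part in the contralateral values was not tested. With Benjamini-Hochberg adjustment over all genes, 0 genes passed 0.05 in any comparison.

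**Figure D3:**
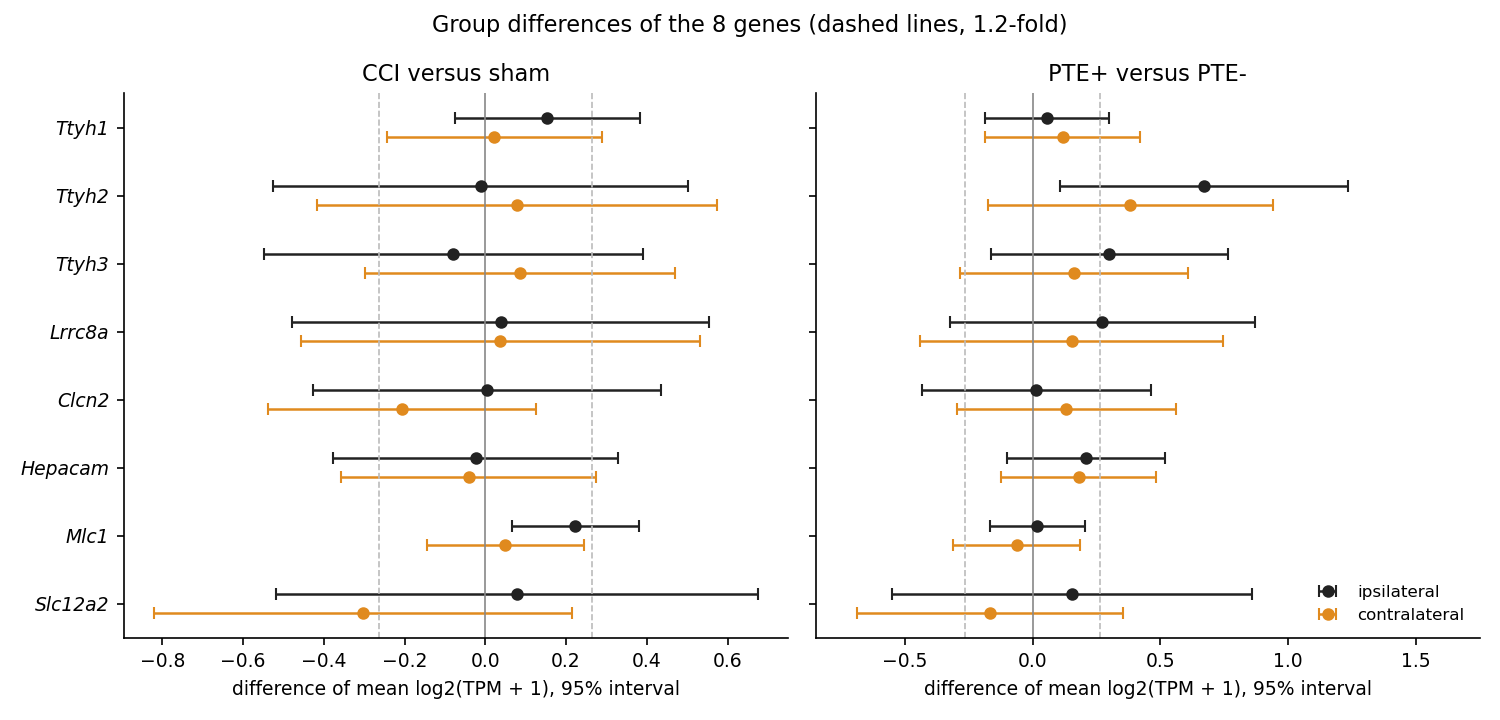
Differences of mean log2(TPM + 1) for the 8 genes (points) with 95% intervals of limma (bars), ipsilateral in black and contralateral in orange, for CCI versus sham on the left and PTE+ versus PTE- on the right. Dashed lines mark 1.2-fold. Among the intervals of tested values, only that of ipsilateral Mlc1 (0.07 to 0.38), on the left, excludes 0. The interval of ipsilateral Ttyh2 on the right (0.11 to 1.23) comes from the contrast Ttyh2 was selected on and is no test.

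Ttyh1, by far the most abundant tweety gene, read 1003, 870, 1004, 1008 and 1444 TPM in ipsilateral sham mice 8_15, 8_16, 9_9, 9_10 and 9_11. PTE+ libraries lay between 1109 and 1318 TPM and PTE- libraries between 945 and 1403. Sham mouse 9_11 alone exceeded all injured libraries, and the other 4 sham libraries lay below every PTE+ library. The log2 difference between CCI and sham was 0.15 (95% interval -0.07 to 0.38, limma p = 0.176) and became 0.27, a DEG, without sham 9_11. Likewise the PTE+ difference from sham of 0.19 (limma p = 0.234) became 0.31, a DEG, without that mouse. On the contralateral side the CCI difference was 0.02 (95% interval -0.24 to 0.29, limma p = 0.862).

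Ttyh3 was not called in any comparison. It averaged 63.1 ± 11.2 TPM (SD, n = 4) in ipsilateral PTE+, 52.5 ± 16.02 (n = 10) in PTE- and 61.4 ± 30.0 (n = 5) in sham, where mouse 9_11 read 111 TPM and the other 4 read 41.3 to 67.3. The CCI difference from sham was -0.08 (95% interval -0.55 to 0.39, limma p = 0.727), and the interval spans more than 1.2-fold in both directions.

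Lrrc8a, the obligatory channel subunit, stood at 11.9 TPM in mouse 8_10, 13.7 in 9_17, 10.8 in 9_18 and 13.4 in 9_19 among ipsilateral PTE+ libraries. PTE- libraries ran from 5.76 to 18.7 TPM (median 10.8) and sham libraries from 5.47 to 14.1. All 4 PTE+ libraries therefore lay inside the PTE- range. The CCI difference from sham was 0.04 on either side (limma p = 0.880 ipsilaterally and 0.876 contralaterally), with ipsilateral bounds of -0.48 and 0.55, an interval that holds 1.2-fold changes in both directions.

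Clcn2, the ClC-2 gene, averaged 89.7 ± 16.9 TPM (SD, n = 4) in ipsilateral PTE+, 90.8 ± 25.1 (n = 10) in PTE- and 93.7 ± 41.7 (n = 5) in sham. Sham mouse 9_11 read 165 TPM, above all 14 injured libraries. Contralaterally 6 of 13 CCI libraries lay below all sham libraries and 2 above all, and the log2 difference of -0.21 (95% interval -0.54 to 0.13) did not pass the test (limma p = 0.210, exact permutation p = 0.236).

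Hepacam, which encodes GlialCAM, read 258 TPM in ipsilateral PTE+ mouse 8_10, 398 in 9_17, 355 in 9_18 and 400 in 9_19. PTE- libraries ran from 250 to 387 TPM with a median of 298, so 2 of 4 PTE+ libraries were above all of them. Sham libraries ranged from 228 to 579 TPM, the highest again in mouse 9_11. The CCI difference from sham was -0.02 (95% interval -0.38 to 0.33, limma p = 0.890), and contralateral PTE+ exceeded PTE- by 0.18 (95% interval -0.12 to 0.48, limma p = 0.224).

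Slc12a2 (ENSMUSG00000024597, chromosome 18), the NKCC1 gene, read 8.78, 15.6, 15.5 and 11.04 TPM in ipsilateral PTE+ mice 8_10, 9_17, 9_18 and 9_19. PTE- libraries ran from 4.95 to 20.1 TPM, and sham libraries read 8.81, 7.83, 8.70, 10.2 and 23.0. The sham library at 23.0 TPM was that of mouse 9_11, whose contralateral library, at 27.95 TPM, was also the highest of its side. The log2 difference from sham was 0.08 ipsilaterally (limma p = 0.789) and -0.30 contralaterally (95% interval -0.82 to 0.21, limma p = 0.236) in CCI mice. Without the library of sham mouse 9_11 of that side, these differences were 0.33 ipsilaterally and -0.05 contralaterally. Over the 37 libraries its r with the summed markers of mural, meningeal and fibroblast cells was 0.68, on the log2 scale, and with oligodendrocyte markers -0.51. That sum ranged from 193 to 349 TPM in ipsilateral sham, 148 to 333 in PTE- and 212 to 295 in PTE+, and its part in the Slc12a2 values was not tested.

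Between the hemispheres of the same group, 126 of 10601 genes (1.19%) were called in sham, 206 of 10374 (1.99%) in PTE- and 170 of 10485 (1.62%) in PTE+, and 147 of 10706 (1.37%) for the difference of the hemispheres between CCI and sham. None of the tested members was called, and without the mouse as a block none had a limma p under 0.05. With the block the count in PTE- was 616 genes, still without a member, and Mlc1 had the limma p given above. In PTE+, Mlc1 differed by 0.20 between hemispheres and met the DEG rule at 0.31 without contralateral mouse 8_17, and Slc12a2 differed by 0.31 and met it at 0.55 without contralateral mouse 9_17.

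Among the members, Ttyh3 and Hepacam varied together most closely. Their r over 37 libraries was 0.84, 0.74 after each library was centered on its median and 0.68 when ipsilateral PTE- mouse 9_14 and sham mouse 9_11 were also left out. Ttyh3 and Lrrc8a followed at 0.52 after centering. Mlc1 and Hepacam, partners at junctions, had an r of 0.21 before centering and -0.21 after it, so the sign depended on the scaling. Ttyh2 was closest to Lrrc8a among the members (0.39), and r was 0.22 with Ttyh3 and 0.12 with Ttyh1. Without ipsilateral PTE- mouse 9_14 these values were 0.35, 0.10 and 0.30, so the order of Ttyh1 and Ttyh3 turned. The 5 genes most like Ttyh2 among 10234 were the cyclin-dependent kinase Cdk2 (0.64), Zfp738 (0.62), the actin-capping gene Capg (0.62), the actin-associated gene Palld (0.59) and Hyi (0.58). Without mouse 9_14 these ranked 2, 6, 9, 21 and 16. All these correlations share libraries and scaling and describe these samples only.

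The other genes of the pathway gave a background of levels. Of the partner subunits that join LRRC8A, Lrrc8d averaged 18.5 TPM, Lrrc8c 9.85, Lrrc8b 3.49 and Lrrc8e 0.0405. As a share of the summed TPM of the 5 subunit genes, Lrrc8d made up 42.0 ± 9.58% (SD, n = 37), Lrrc8a 27.3 ± 7.48% and Lrrc8c 22.6 ± 5.41%. The intracellular chloride-proton exchangers Clcn4 (124 TPM) and Clcn3 (62.4 TPM) were near Clcn2, and Cftr (0.0211 TPM) and the bestrophins Best1 (0.429 TPM) and Best3 (0.155 TPM) were near 0. Among cotransporters, the potassium-chloride exporter Slc12a4 (123 TPM) was above Slc12a2, and the neuronal exporter Slc12a5 averaged 3.95 TPM. Connexin 43 (Gja1, 1968 TPM) and the water channel Aqp4 (647 TPM) were the most abundant of the genes tied to the MLC1 complex.

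**Figure D4:**
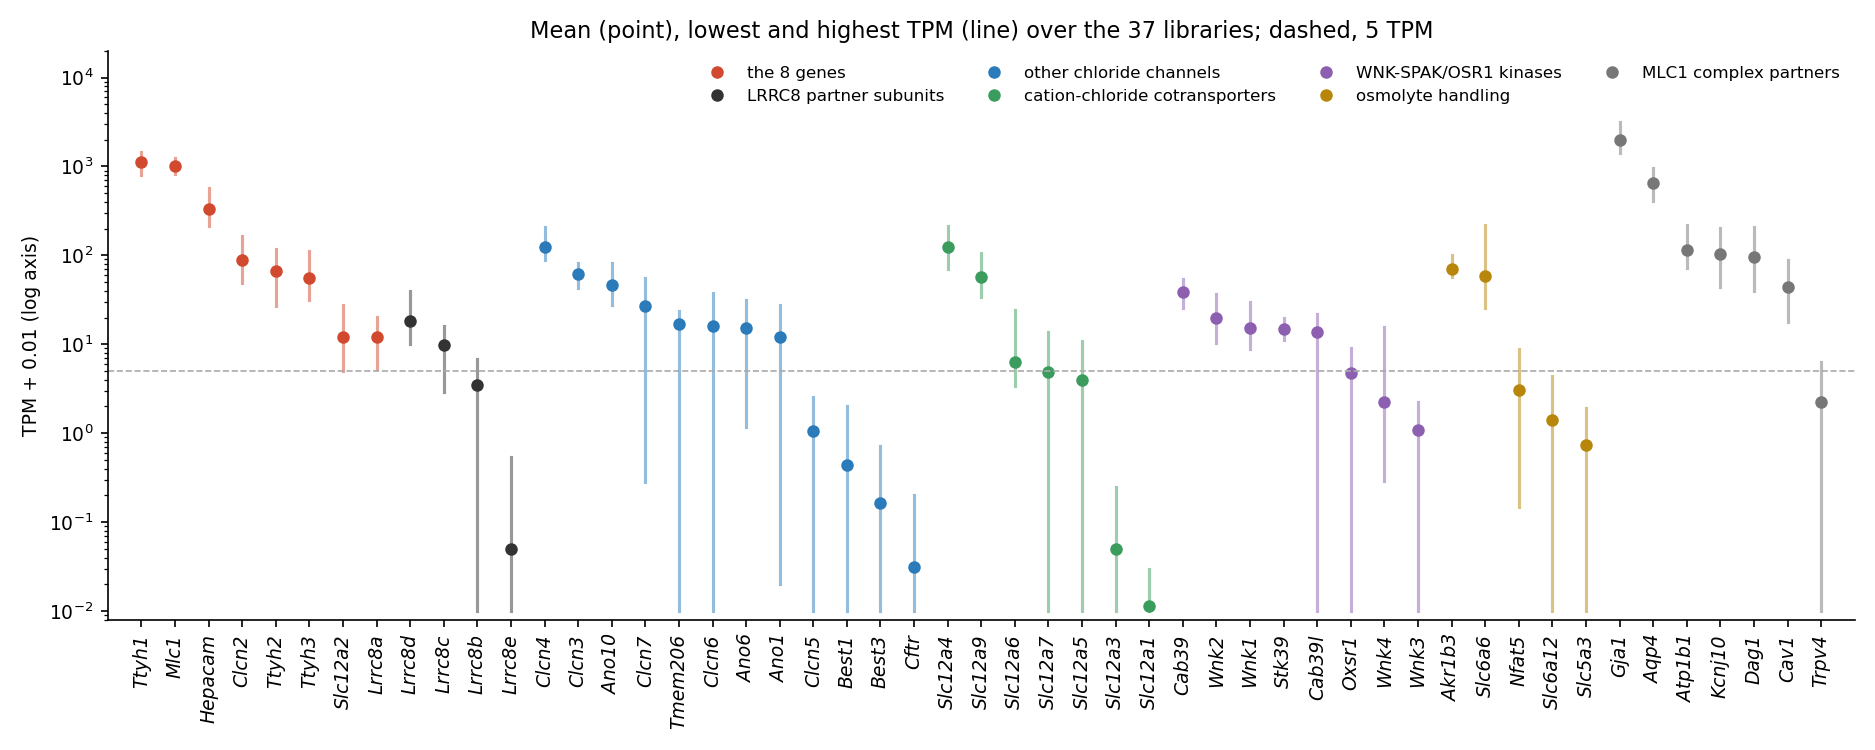
Mean TPM (points) with the lowest and highest library (lines) over the 37 libraries, on a log axis after adding 0.01, for the 8 genes and genes of 6 related lists, ordered by level within each list. The dashed line marks 5 TPM, the level a group mean had to exceed for a gene to be tested. Ttyh1, Mlc1, Gja1, Aqp4 and Hepacam stand highest, and Lrrc8e, Cftr, Slc12a1 and Slc12a3 lie near 0.

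Few of these genes were called in any comparison. Of the 4 LRRC8 partners 2 were tested, of 12 other chloride channels 8, of 7 cotransporters 4, of 8 kinases of the WNK cascade 5 or 6, of 5 osmolyte genes 2 and of 8 MLC1 complex genes 7. Among the other chloride channels and the cotransporters, 0 were called in any of the 12 comparisons by limma, in either direction, and 0 had an unadjusted p under 0.05. Over all genes, between 0.573% and 4.05% were called per comparison, so 0 calls among 8 and 4 tested genes says little. The median log2 difference of the 8 other chloride channels in ipsilateral PTE+ versus PTE- was 0.38, beside 0.12 over all genes. It rested on PTE- mouse 9_14, where Clcn6 and Tmem206 were listed at 0 and Ano1 at 0.01 TPM: without that library it was 0.12, beside 0.08 over all genes. The median of the 4 cotransporters was 0.10 with all libraries and 0.04 without that one.

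Aqp4, which encodes the endfoot water channel, was called on the ipsilateral side. It averaged 568.3 ± 199 TPM (SD, n = 5) in sham, 698 ± 157 (n = 10) in PTE- and 811 ± 139 (n = 4) in PTE+. It was higher in CCI than in sham by 0.39 (limma p = 0.0343, adjusted p = 0.9997), in PTE+ than in sham by 0.56 (limma p = 0.0306), and in the ipsilateral than the contralateral PTE+ cortex by 0.47 (limma p = 0.0151). The first call was lost without sham mouse 8_15, 8_16 or 9_9, at 0.30, 0.29 and 0.38. The second was lost without any of those sham mice or any of PTE+ mice 9_17, 9_18 and 9_19 (0.45 to 0.54) and under quantile normalization (0.54), and the third without contralateral mouse 8_10 (0.39). None of the 3 Aqp4 calls reached 1.5-fold.

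In the contralateral cortex, 2 of 6 tested genes of the kinase cascade that controls the cotransporters and 1 of 2 tested LRRC8 partners were lower in CCI than in sham. Over all genes, 428 of 10556 (4.05%) were called there in either direction. Wnk1, the first kinase of the cascade, averaged 19.8 ± 4.38 TPM (SD, n = 5) in sham, 13.4 ± 3.49 (n = 9) in PTE- and 14.8 ± 4.95 (n = 4) in PTE+. Its log2 difference was -0.51 in CCI (limma p = 0.0137, adjusted p = 0.978) and -0.54 in PTE- (limma p = 0.0119). Oxsr1, its downstream kinase, differed by -0.39 in CCI and -0.41 in PTE- (limma p = 0.0454 and 0.0392), and Lrrc8d by -0.40 and -0.46 (limma p = 0.0355 and 0.0320). The median of all genes was -0.07 and -0.09 in these comparisons. With each library centered on its median, Oxsr1 (-0.29 in both) and Lrrc8d (-0.30 and -0.34) were no longer called. The Lrrc8d call in CCI was lost without PTE- mouse 8_9, 8_11, 9_12, 9_13 or 9_16 or sham mouse 8_15, 9_9 or 9_11 (-0.38 to -0.30), and in PTE- without 8_11, 9_12 or 9_16 or the same sham mice (-0.42 to -0.37). The Oxsr1 call in CCI was lost without PTE+ mouse 8_10, 8_17 or 9_18, PTE- mouse 8_9, 8_11, 8_13, 9_12 or 9_16 or any sham mouse but 9_9 (-0.42 to -0.35). In PTE- it was lost without those PTE- mice or sham mouse 8_15, 9_10 or 9_11 (-0.43 to -0.36). Wnk1 remained a DEG under every alternative except a 1.5-fold threshold. Among osmolyte genes the taurine transporter Slc6a6 was lower in the ipsilateral than the contralateral PTE- cortex, at a log2 difference of -0.45 (limma p = 0.0186), or -0.39 with the mouse as a block (limma p = 0.0522), which is no longer a call.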

How the data were processed

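RNA of ACSA-2 bead-isolated cortical astrocytes was prepared with SMART-Seq v4. Per the labels and the methods, the authors trimmed reads with Trim Galore 0.6.4, mapped them to mm10 with Bowtie2 2.4.1 and RSEM 1.2.28, and deposited TPM per gene, 1 table per hemisphere. Mice 8_17, 9_14 and 9_19 have 1 library each here. The annotation release is not given in the sources used here. Symbols and positions came from GENCODE vM21 on GRCm38, which named 21856 genes and left 119 without a symbol. All 37 columns were used.

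TPM are not counts, so log2(TPM + 1) was compared with limma 3.58.1 (R 4.3.3) with a variance trend, two-sided, over genes whose mean exceeded 5 TPM in either group. DEGs were called at 1.2-fold or more and an unadjusted p under 0.05. Benjamini-Hochberg adjustment ran over all genes tested. Log2 differences understate changes of low genes. Members were also tested by exact permutation of the group labels over the libraries (hemispheres: exact sign flips over mice), two-sided, with Python 3.11.15 and scipy 1.17.1. The fits were tested on simulated data.

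Groups come from the labels, and replicates are separate mice. The mouse name pairs the hemispheres of 17 mice, whose deviations from group means correlated in 16 at over 0.1 (median 0.41, over 10235 genes). The members and gene lists were chosen with earlier results of these data known. Named genes are the members, list genes that were DEGs (at most 3 per list and comparison), and the 5 genes most like Ttyh2, and genes named only for their level were chosen after their values were seen. Alternatives were a pseudocount of 0.1, no TPM filter or one at 1, quantile normalization, median centering, array weights, no fold threshold or 1.5-fold, all groups in the fit, the name prefix as covariate, the mouse as a block, and each library left out in turn. Ipsilateral and contralateral values come from separate tables, each scaled per library. The result of 1 listed gene is not reported here.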

Additional observations from a re-analysis of the deposited data

Results flagged for a closer look

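In 48 groups of a gene, hemisphere and condition with 4 to 10 libraries, 5 held a library whose gap to its nearest neighbor was large for the range of its group by Dixon's test, which chance gives in about 1 of 20 groups. All 5 were sham groups. Ipsilateral sham mouse 9_11 was highest for Ttyh1 at 1444 TPM (next 1008), for Clcn2 at 165 TPM (next 85.8) and for Slc12a2 at 23.0 TPM (next 10.2). Ipsilateral sham mouse 8_15 was highest for Ttyh2 at 84.9 TPM (next 63.3). Contralateral sham mouse 9_10 was lowest for Lrrc8a at 6.81 TPM (next 13.2). The ipsilateral library of 9_11 had 16876 genes above 0, within the range of the others, but the lowest summed oligodendrocyte (521 TPM) and microglial (120 TPM) markers and the highest summed astrocyte markers (20577 TPM) of the 37 libraries.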

How the results depend on the processing

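Without any 1 library, the number of members called ranged from 0 to 2 in ipsilateral CCI versus sham and PTE+ versus sham and from 0 to 1 in ipsilateral PTE- versus sham and between hemispheres in PTE+. In ipsilateral PTE+ versus PTE-, the contrast Ttyh2 was chosen on, the number past the thresholds ran from 0 to 2 and is no test. With array weights 1 member was called in ipsilateral CCI versus sham (Mlc1, 0.27), 3 in ipsilateral PTE+ versus sham (Slc12a2, 0.50, Mlc1, 0.31, and Ttyh1, 0.29), 2 between hemispheres in PTE+ (Slc12a2, 0.52, and Mlc1, 0.33) and 1 for the difference of hemispheres between CCI and sham (Slc12a2, 0.70). With no fold threshold Mlc1 was the 1 member called in CCI and in PTE- versus sham ipsilaterally. The cause of these shifts was not tested. No tested member was called with the main settings, so no call of a tested member could be lost or reversed. Of 2440 values of the members under an alternative, 2189 kept direction and side of the threshold. A further 29 uncalled values changed sign within the spread, 206 uncalled values moved beyond it and 16 passed the threshold newly. The listed genes are not in this tally, and their lost calls are given above. Changes past the thresholds in ipsilateral PTE+ versus PTE- are not counted in it as calls gained or lost.

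Counts over all genes moved more. Apart from leaving out libraries, they went from 169 to between 89 and 843 (ipsilateral CCI versus sham), 161 to 95 and 650 (PTE-), 163 to 83 and 1221 (PTE+) and 60 to 32 and 441 (PTE+ versus PTE-), and contralaterally from 428 to 70 and 682, 397 to 88 and 677, 210 to 100 and 1114, and 291 to 118 and 828. Between hemispheres they moved from 126 to 53 and 910 in sham, 206 to 74 and 616 in PTE- and 170 to 100 and 1317 in PTE+, and for the hemisphere difference from 147 to 91 and 1257. The lowest mostly had a 1.5-fold threshold and the highest mostly array weights. Without 1 library, the ipsilateral counts ranged from 138 to 415 (without sham 9_11) in CCI, 137 to 416 (without 9_14) in PTE-, 95 (without PTE+ 9_18) to 1038 (without sham 9_11) in PTE+ and 23 (without 9_17) to 197 (without 9_14) in PTE+ versus PTE-. Contralaterally they ranged from 231 (without sham 9_11) to 883 (without sham 9_9), 224 (without sham 9_11) to 861 (without sham 8_16), 104 (without PTE+ 8_10) to 601 (without sham 9_9) and 201 to 489 (without PTE+ 9_18). Between hemispheres they ranged from 68 (without contralateral 9_10) to 762 (without ipsilateral 9_11) in sham, 164 to 360 (without ipsilateral 9_14) in PTE-, 90 (without ipsilateral 9_19) to 393 (without ipsilateral 8_10) in PTE+, and 89 (without contralateral sham 9_10) to 476 (without ipsilateral sham 9_11) for the hemisphere difference. In the paired fit with the mouse as a replicate block the number of members called was 0 in each hemisphere comparison, and the call of Slc6a6 was lost. TPM give no depth, so counting error could not be separated.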
